A study of Oryza sativa with 12 samples.

Results

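ABC transporters are membrane pumps that spend ATP to move lipids, hormones, metal complexes, glutathione conjugates and other compounds across membranes. In plants the ABCG subfamily is large and serves the cuticle, suberin, pollen wall and defence compounds. Its full-size proteins, of the PDR kind, carry the whole pump in 1 chain, while the shorter WBC kind has to pair. ABCC proteins mostly load the vacuole, and ABCI proteins are the separate subunits of pumps built like those of bacteria.

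The genes described here were all those with 1 listed gene per probe set on the rice array whose symbol or RefSeq synonym is ABCA, ABCB, ABCC, ABCF, ABCG or ABCI with a number. The rule found 12 genes with 15 probe sets, of 17905 genes with a listed probe set in all. Of these, 10 are ABCG genes, 1 is an ABCC gene and 1 is an ABCI gene, and there were 0 ABCA, 0 ABCB and 0 ABCF genes. The RefSeq table names 15 such genes, and 3 of them, ABCG35, ABCG43 and ABCG53, had no probe set of their own and were not analysed here. Each gene is represented by the brightest of its probe sets. The comparison of subfamilies is therefore one of 10 ABCG genes with a single ABCC gene and a single ABCI gene.

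Total RNA from field-grown rice (Oryza sativa) was measured on 12 Affymetrix arrays in 4 groups of 3 biological replicates. The groups were young, fully emerged panicles of IL50-7, the same organ of KMR3, flag leaves of IL50-7, and flag leaves of KMR3. IL50-7 is called a high yielding introgression line in the series title, that is, a line with donor chromosome segments in another parent's background, and the labels name neither the donor nor the segments. The labels give no plant age, and no treatment was applied. All levels are log2 intensities after quantile normalization, and the background, the 95th percentile of 23 control probe sets without a target, was log2 4.01. Levels of different genes come from different probes and are not set against each other. Differences were tested with limma over 34316 probe sets, and a gene is said to have risen or fallen where its Benjamini-Hochberg adjusted p was under 0.05.

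Some arrays stood apart. At 13 probe sets that were on in the leaves of one line and off in those of the other, IL50-7 panicle replicate 2 and KMR3 panicle replicate 3 were each in the state of their own line's leaves at 1 of 13, against 10 to 12 of 13 for the other 4 panicle arrays. The mean log2 intensity over 7 tapetum and pollen markers was highest in IL50-7 panicle replicate 1, at 10.65, and in KMR3 panicle replicate 3, at 10.71, and IL50-7 panicle replicate 3 had the lowest panicle value, at 7.05. Across probe sets, IL50-7 leaf replicate 1 departed from the mean of the other leaf arrays of both lines in the direction of the panicle. Its deviation had a correlation of 0.428 to the organ difference, where the remaining leaf arrays had -0.152 to 0.0985. Trimmed mean intensities as deposited ran from 125 to 296. Results that rest on these arrays are given with and without them below.

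Of the 12 genes, 7 were above background on all 12 arrays: ABCC13, ABCI12, ABCG36, ABCG39, ABCG42, ABCG44 and ABCG50. ABCG37 was above it on 11 arrays, ABCG32 and ABCG48 on 6 each, ABCG45 on 3 and ABCG5 on 2. The filter on dim probe sets left 11 genes to be tested, and ABCG5 was not among them. ABCG48 and ABCG45 were above background in panicles alone, so they passed the filter through that organ.

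**Figure D1:**
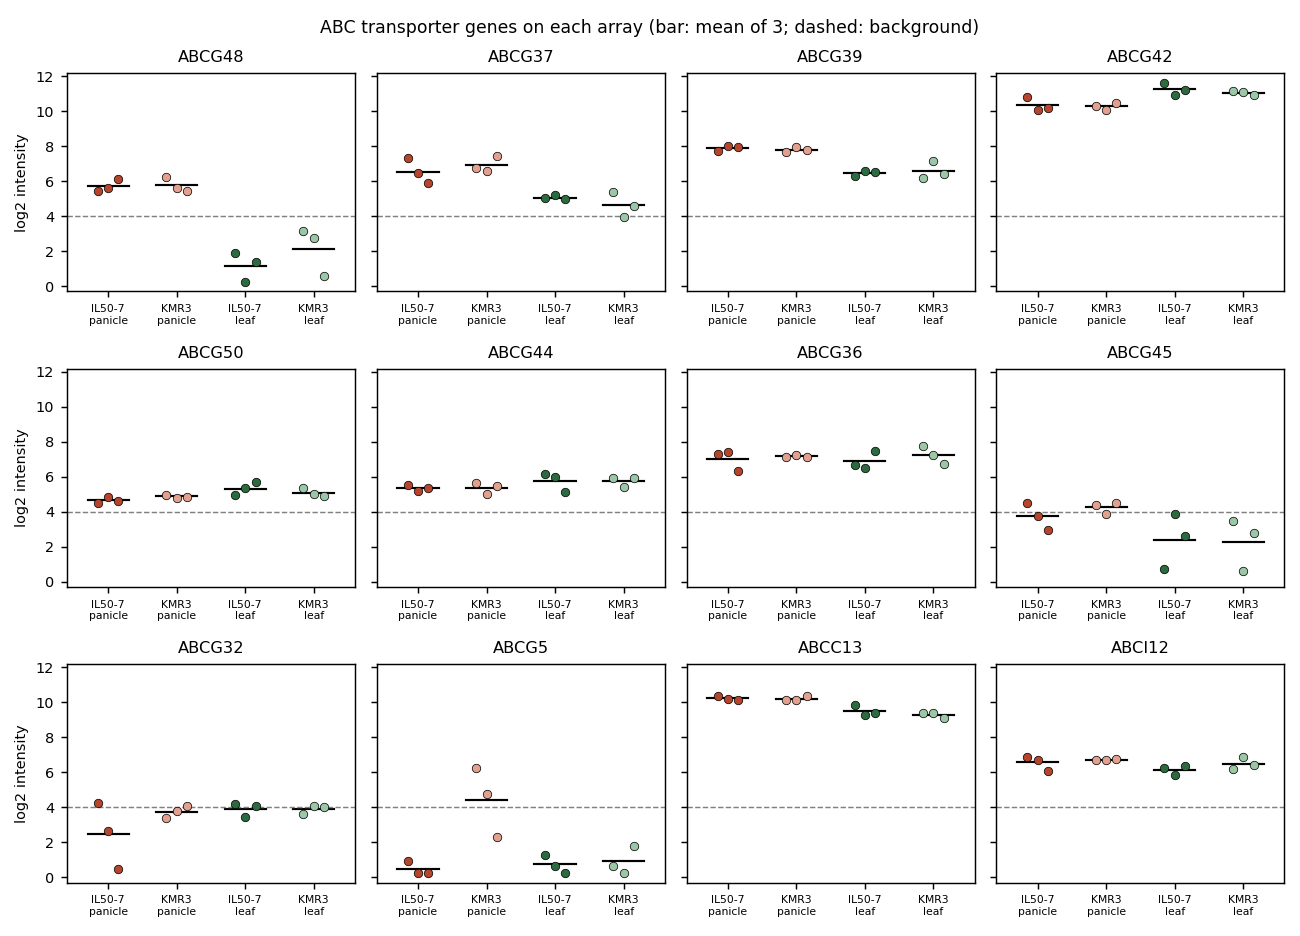
Log2 intensity (vertical axis) of the brightest probe set of each of the 12 ABC transporter genes on each array, in 4 groups of 3 arrays, with a bar at each group mean and a dashed line at the background of 4.01. ABCG48 lies above the line in panicles and below it in leaves, while ABCG36, ABCG44 and ABCI12 overlap between the organs.

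In which organ each transporter gene was more strongly expressed was asked within each line. ABCG48, ABCG37, ABCG39 and ABCC13 rose in the panicle and ABCG42 fell, each in both lines. That is 4 of 11 tested genes higher and 1 lower in IL50-7 panicles, and likewise 4 higher and 1 lower in KMR3 panicles. In the fit without the filter on dim probe sets, over 12 genes, 4 were higher and 1 lower in IL50-7, and 5 were higher and 1 lower in KMR3, where ABCG5 was the addition. That fit called 15218 of 57194 probe sets in IL50-7 and 16144 in KMR3, both directions together. In the fit with the filter, over 34316 probe sets, 22.4% were higher and 23.2% lower in IL50-7 panicles. In KMR3 panicles 22.5% were higher and 25% lower. On the deposited scale the counts were 3 higher and 0 lower in IL50-7 and 4 higher and 0 lower in KMR3, and with array medians set equal they were 3 higher and 1 lower in IL50-7 and 4 higher and 0 lower in KMR3. Of all probe sets, 11387 were called in IL50-7 and 13064 in KMR3 on the deposited scale. With equal medians 12781 and 14250 were called. The 3 panicle and 3 leaf values did not overlap for 6 of 11 genes in each line, where 54% of all probe sets did not overlap in IL50-7 and 59.4% in KMR3. In bulk samples a smaller number of cells of a type and less RNA per cell cannot be told apart.

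**Figure D2:**
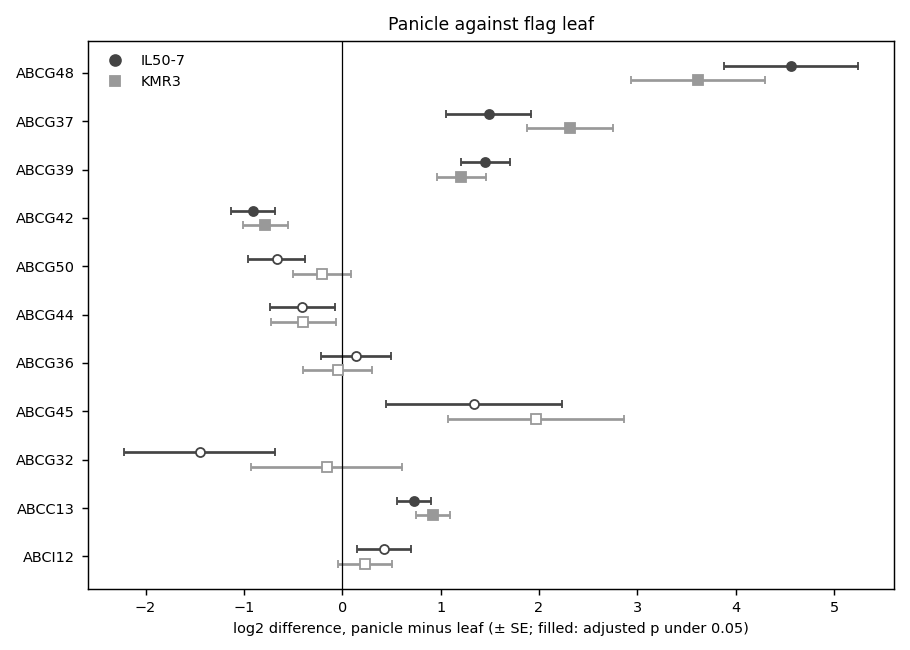
Log2 difference of panicle minus leaf (horizontal axis, with its standard error) for the 11 tested genes in IL50-7 (circles) and KMR3 (squares), filled where the adjusted p was under 0.05. ABCG48 has the largest difference in both lines, at 4.56 in IL50-7 and 3.61 in KMR3, and ABCG42 is the filled gene below 0.

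ABCG48 (LOC4350807, chromosome 11), a full-size ABCG gene with the synonym PDR3, was on in panicles and under background in leaves. It stood at 5.43, 5.63 and 6.11 in IL50-7 panicles, against 1.88, 0.26 and 1.35 in IL50-7 leaves. In KMR3 it stood at 6.27, 5.60 and 5.42 in panicles, against 3.13, 2.76 and 0.55 in leaves. All 6 panicle arrays were above background and all 6 leaf arrays were below it, so the fold is a lower bound against the background. ABCG48 was at least 3.28-fold higher in IL50-7 panicles (limma, adjusted p = 0.000246) and at least 3.37-fold higher in KMR3 panicles (limma, adjusted p = 0.0012). Since the gene passed the filter on dim probe sets through the panicle, the fit without that filter is given too, with adjusted p of 0.00051 in IL50-7 and 0.00243 in KMR3 (limma).

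ABCG37 (LOC4327730, chromosome 1), a full-size ABCG gene known also as PDR8, rose in the panicle of both lines. Its panicle values in IL50-7 were 7.30, 6.45 and 5.88, against leaf values of 5.02, 5.19 and 4.97. In KMR3 its panicle values were 6.78, 6.60 and 7.45, against leaf values of 5.38, 3.93 and 4.59. Every panicle array was above every leaf array, and the lowest leaf value, in KMR3, lay just under background. The difference was 2.80-fold in IL50-7 (log2 difference 1.49 ± 0.43 SE, limma adjusted p = 0.0157) and 4.97-fold in KMR3 (2.31 ± 0.43 SE, limma adjusted p = 0.00116). Without IL50-7 panicle replicate 1, its highest panicle array in that line, the IL50-7 difference was 1.10 (limma, adjusted p = 0.0652). Its probe set is of the kind that Affymetrix marks as shared by transcripts of more than 1 gene, so part of the signal may come from a related sequence, which was not tested.

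ABCG36 (LOC4327728), known also as PDR9 and described in rice as a pump that moves cadmium out of root cells, lies close to ABCG37 on chromosome 1. In the gene order of the RefSeq table ABCG35 and ABCG36 are the protein-coding genes numbered 1954 and 1955 of that chromosome and ABCG37 is number 1957. ABCG36 did not pass in either line. It stood at 7.29, 7.42 and 6.36 in IL50-7 panicles, against 6.69, 6.49 and 7.46 in IL50-7 leaves. In KMR3 it stood at 7.15, 7.26 and 7.15 in panicles, against 7.74, 7.22 and 6.75 in leaves. The organs overlapped in both lines, with log2 differences of 0.14 in IL50-7 (95% interval -0.64 to 0.91) and -0.05 in KMR3 (-0.82 to 0.73). Its second probe set lay under background on all arrays. The value of ABCG37 minus ABCG36 on each array, a comparison chosen after the values were seen, was higher in panicles by 1.35 in IL50-7 and by 2.36 in KMR3. As the pair was chosen for that difference, it is given without a test.

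ABCG39 (LOC4328687, chromosome 2), a full-size ABCG gene with the synonym PDR7, had panicle values that varied little. They were 7.75, 8.04 and 7.96 in IL50-7 panicles, against 6.31, 6.58 and 6.50 in IL50-7 leaves. In KMR3 they were 7.67, 7.94 and 7.77 in panicles, against 6.17, 7.16 and 6.41 in leaves. The organs did not overlap in either line. ABCG39 was 2.74-fold higher in IL50-7 panicles (limma, adjusted p = 0.000635) and 2.31-fold higher in KMR3 panicles (limma, adjusted p = 0.00206). A second, much dimmer probe set of the gene had differences of -1.11 ± 0.88 SE in IL50-7 and -1.28 ± 0.88 SE in KMR3 (limma, adjusted p = 0.331 and 0.252), and with the mean of both probe sets the gene had 0.17 and -0.04 and was no longer called in either line (limma, adjusted p = 0.771 and 0.952). That second probe set was above background on 0 of 3 IL50-7 panicle arrays and 2 of 3 arrays of each other group.

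ABCG42 (LOC4341281, chromosome 6), a full-size ABCG gene with the synonym PDR12, was the member that fell in the panicle. It stood at 10.81, 10.05 and 10.18 in IL50-7 panicles, against 11.61, 10.93 and 11.22 in IL50-7 leaves. In KMR3 it stood at 10.31, 10.07 and 10.46 in panicles, against 11.15, 11.12 and 10.92 in leaves. Every leaf array lay above every panicle array. The fall was 1.87-fold in IL50-7 (log2 difference -0.91 ± 0.22 SE, limma adjusted p = 0.00654) and 1.72-fold in KMR3 (-0.78 ± 0.22 SE, limma adjusted p = 0.0139). On the deposited scale ABCG42 had -0.84 in IL50-7 and -0.36 in KMR3 (limma, adjusted p = 0.078 and 0.445), where the median of all probe sets was 0.15 in IL50-7 and 0.309 in KMR3. Relative to those medians ABCG42 was lower by 0.99 in IL50-7 and by 0.67 in KMR3. Its second probe set had -0.28 ± 0.21 SE in IL50-7 (limma, adjusted p = 0.31) and -0.80 ± 0.21 SE in KMR3 (limma, adjusted p = 0.00866). That second probe set is of the kind Affymetrix marks as partly matching other sequences, and their part in its signal was not tested.

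The other 4 tested ABCG genes did not pass in either line. ABCG50 (LOC4352332, chromosome 12) had 4.48, 4.85 and 4.60 in IL50-7 panicles, against 4.93, 5.34 and 5.67 in IL50-7 leaves. Those groups did not overlap, yet the difference of -0.67 ± 0.29 SE had an adjusted p of 0.0844 by limma, and in KMR3 the difference was -0.21 ± 0.29 SE. ABCG44 (LOC4345450, chromosome 8) differed by -0.41 ± 0.33 SE in IL50-7 and by -0.40 ± 0.33 SE in KMR3. The ABCG44 probe set is of the kind Affymetrix marks as partly matching other sequences, and their part in its signal was not tested. ABCG45 (LOC4346210, chromosome 8), known also as PDR1, was above background on 1 of 3 IL50-7 panicle arrays and 2 of 3 KMR3 panicle arrays, and on 0 of 6 leaf arrays. ABCG32 (LOC4326812, chromosome 1) had group means between 2.45 and 3.91, all under background. Without IL50-7 panicle replicate 1, whose value of 4.23 was above background, its fitted difference in IL50-7 was -2.33 (limma, adjusted p = 0.0161), against -1.45 with all arrays (limma, adjusted p = 0.148). Without IL50-7 panicle replicate 3, whose value was 0.48, the difference was -0.46 (limma, adjusted p = 0.547), so 1 array near the floor carried it.

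ABCG5 (LOC4332449, chromosome 3), known as RCN1 or REDUCED CULM NUMBER1, is a WBC-type gene that rice needs for normal tillering and for the suberin barrier of the root. It was seen above background on 2 arrays, both of KMR3 panicles. Its values were 6.23, 4.77 and 2.28 in KMR3 panicles, against 0.65, 0.26 and 1.80 in KMR3 leaves. In IL50-7 they were 0.94, 0.26 and 0.26 in panicles, against 1.29, 0.64 and 0.26 in leaves. The lowest of the KMR3 panicle arrays is replicate 3, 1 of the pair in doubt. The gene did not pass the filter on dim probe sets. In the fit without that filter it had an adjusted p of 0.00892 for panicle against leaf in KMR3 and of 0.766 for IL50-7 against KMR3 in panicles (limma). On the group means the KMR3 panicle was 1.34-fold above background, which is a lower bound for its fold against KMR3 leaves.

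ABCC13 (LOC4331585, chromosome 3), the single ABCC gene, is LPA2, a relative of the maize transporter LPA1, and rice mutants in it store less phytic acid in the grain. It rose in the panicle of both lines by under 2-fold. Its values were 10.38, 10.21 and 10.11 in IL50-7 panicles, against 9.84, 9.26 and 9.40 in IL50-7 leaves. In KMR3 they were 10.12, 10.14 and 10.38 in panicles, against 9.36, 9.40 and 9.11 in leaves. The organs did not overlap, and the highest leaf value was that of IL50-7 leaf replicate 1, the leaf array that deviated towards panicle. The rise was 1.66-fold in IL50-7 (log2 difference 0.73 ± 0.17 SE, limma adjusted p = 0.00498) and 1.90-fold in KMR3 (0.92 ± 0.17 SE, limma adjusted p = 0.00115). Without IL50-7 leaf replicate 1 the IL50-7 difference was 0.90 (limma, adjusted p = 0.000893). On the deposited scale and with array medians set equal it was 0.85 and 0.70 in IL50-7 and no longer passed (limma, adjusted p = 0.0726 and 0.112), while the KMR3 rise passed under both.

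ABCI12 (LOC4341938, chromosome 6), the single ABCI gene, is STAR1, the ATP-binding subunit that works with STAR2 in aluminium tolerance of rice roots. It did not pass in either line. Its values were 6.89, 6.71 and 6.10 in IL50-7 panicles, against 6.25, 5.82 and 6.35 in IL50-7 leaves. In KMR3 they were 6.69, 6.68 and 6.73 in panicles, against 6.16, 6.86 and 6.40 in leaves. The differences were 0.42 in IL50-7 (95% interval -0.18 to 1.02) and 0.23 in KMR3 (-0.37 to 0.83), and the organs overlapped in both.

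By subfamily, the 9 tested ABCG genes had 3 higher and 1 lower in the panicle of each line. Over all probe sets tested, 22.4% were higher and 23.2% lower in IL50-7, and 22.5% and 25% in KMR3. Their median log2 difference was 0.14 in IL50-7 and -0.05 in KMR3, beside -0.06 and -0.11 over all probe sets tested. On the deposited scale it was 0.48 and 0.53, where the median of all probe sets was itself 0.15 and 0.309. The median level over the 9 genes, taken on each array, was 5.67 ± 0.19 in IL50-7 panicles against 5.15 ± 0.17 in IL50-7 leaves, and 5.77 ± 0.43 in KMR3 panicles against 5.09 ± 0.25 in KMR3 leaves (SD, n = 3 each). On IL50-7 panicle replicate 2 and KMR3 panicle replicates 1 and 2 the median gene was ABCG48 itself, at 5.63, 6.27 and 5.60. As ABCG48 passed the filter through the panicle and lay under background in leaves, these levels do not measure a rise of the subfamily. ABCC13 had 10.23 ± 0.14 in IL50-7 panicles against 9.50 ± 0.30 in IL50-7 leaves, and 10.21 ± 0.14 in KMR3 panicles against 9.29 ± 0.16 in KMR3 leaves. ABCI12 had 6.57 ± 0.41 against 6.14 ± 0.28 in IL50-7, and 6.70 ± 0.03 against 6.47 ± 0.35 in KMR3, panicle before leaf in each. A subfamily of 1 gene carries no spread between genes, and no subfamily was tested against another.

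Markers of other cell types moved with organ, and their part in these differences was not tested. Floral organ markers, 11 MADS-box genes, were all above background on every panicle array and 5 to 7 of them on each leaf array. Of the 11, 10 rose in IL50-7 panicles and 9 in KMR3 panicles. A second gene that matched the symbol MADS2 passed in neither line. Its means were 9.94 in IL50-7 panicles and 9.66 in IL50-7 leaves, and 9.85 and 9.91 in KMR3. The leaf sums below hold its signal too, so they do not measure floral organs alone. Their summed intensity was 20700 to 22800 in IL50-7 panicles against 1200 to 1670 in IL50-7 leaves, and 19700 to 23200 in KMR3 panicles against 1490 to 2140 in KMR3 leaves. The 7 tapetum and pollen markers summed to 8630 to 28800 in IL50-7 panicles against 117 to 161 in IL50-7 leaves, and to 17900 to 31000 in KMR3 panicles against 137 to 152 in KMR3 leaves. The 3 cellulose synthases of secondary walls, which mark vascular and other thickened cells, summed to 6320 to 10800 against 550 to 3200 in IL50-7, and to 7050 to 10300 against 357 to 1710 in KMR3, panicle before leaf. The 4 flag leaf markers, photosynthesis genes of which 1 fell in IL50-7 panicles and 2 in KMR3 panicles, summed to 19300 to 29300 against 36300 to 37300 in IL50-7 and 19100 to 29500 against 36100 to 37100 in KMR3. Among them CAB2R had the same value, log2 13.93, on every leaf array after quantile normalization, so it adds no spread to the leaf sums. The 3' to 5' ratio of the GAPDH control, a sign of RNA quality, was 7.68 to 23.3 on panicle arrays and 2.54 to 6.32 on leaf arrays, with no overlap. Among panicles it was 8.72, 18.7 and 7.68 in IL50-7 and 23.3, 16 and 17.6 in KMR3. The ratio of the actin control overlapped between the organs, at 4.95 to 13.4 on panicle arrays and 5.17 to 9.40 on leaf arrays. The part of RNA quality in the organ and line differences was not tested.

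IL50-7 panicle replicate 1 and KMR3 panicle replicate 3 stood apart in several marker lists as well as in some of the transporter genes, a pattern chosen after the values were seen. Beside the high tapetum and pollen markers, their secondary wall markers averaged 11.44 and 11.30, against 10.65 to 10.76 on the other 4 panicle arrays, and their flag leaf markers 9.20 and 9.92, against 10.53 to 10.97. The mean of 9.20 is pulled down by the dim RBCS1, which was at the floor of 0.26 there and at 2.53 to 4.27 on the remaining panicle arrays. Of the bright flag leaf markers, rbcS had 10.96 and 11.47, against 12.72 to 12.80, and rca 11.84 and 11.74, against 12.90 to 13.12. The part of these cell types in the members' values was not tested. Of the 12 genes, 6 had their highest panicle values on these arrays, namely ABCG37, ABCC13, ABCG42, ABCI12 and the dim ABCG32 and ABCG45, while 5 had neither their highest nor their lowest there. The share of all probe sets with such an order was not counted, so these counts are not read as a trait of the transporters. ABCG48 was the 1 gene with its lowest panicle values there, at 5.43 and 5.42, against 5.60 to 6.27 on the other 4. ABCG37 had 7.30 in IL50-7 panicle replicate 1 and 7.45 in KMR3 panicle replicate 3, its highest values, and was lowest in IL50-7 panicle replicate 3, the array with the lowest marker mean. ABCC13 stood at 10.38 on both of those high arrays and between 10.11 and 10.21 on the other 4. ABCG42, the gene that was lower in panicle than in leaf, also had its highest panicle values there, at 10.81 and 10.46, against 10.05 to 10.31 on the other 4. ABCG39 showed no such order, at 7.75 and 7.77 on those arrays and 7.67 to 8.04 on the other 4. ABCI12 had 6.89 and 6.73 there, against 6.10 to 6.71. With both high arrays left out, 5 genes still passed in each line, where 14526 of all probe sets passed in IL50-7 and 15140 in KMR3. In KMR3 these were again 4 higher and 1 lower, and in IL50-7 they were 3 higher and 2 lower, ABCG37 missing the threshold (1.10, limma adjusted p = 0.0586) and the dim ABCG32 passing (-2.31, limma adjusted p = 0.0215). Leaving out the pair in doubt for their line gave 5 called genes in each line, 4 higher and 1 lower. Of all probe sets, 13619 were then called in IL50-7 and 14135 in KMR3.

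**Figure D3:**
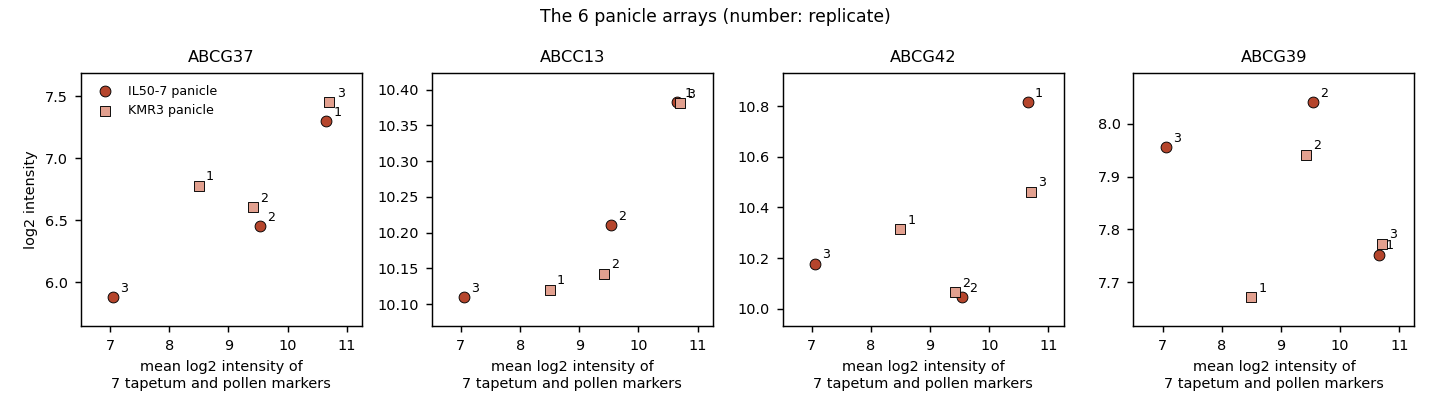
Log2 intensity of ABCG37, ABCC13, ABCG42 and ABCG39 (vertical axes, each with its own range) against the mean log2 intensity of 7 tapetum and pollen markers (horizontal axis) on the 3 IL50-7 (circles) and 3 KMR3 (squares) panicle arrays, numbered by replicate. IL50-7 panicle replicate 1 and KMR3 panicle replicate 3 lie at the right, at marker means of 10.65 and 10.71, and are the 2 highest arrays for the first 3 genes, which were chosen to show that pattern, and not for ABCG39. The same arrays also differed in secondary wall and flag leaf markers.

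Genes of pathways that meet these transporters were read from lists chosen by symbol. Phytic acid, the phosphate store of the grain that ABCC13 helps to place in the vacuole, is made from inositol by a chain of kinases. Of 9 tested genes of its synthesis, 5 rose and 2 fell in IL50-7 panicles, and 3 rose and 3 fell in KMR3 panicles. INO1, the inositol phosphate synthase of the first step, rose by 1.96 in IL50-7 and by 2.01 in KMR3 on the log2 scale (limma, adjusted p = 2.47e-05 and 2.14e-05). IPK1, the kinase that adds the last phosphate, rose by 1.79 and by 1.95 (limma, adjusted p = 1.27e-05 and 7.17e-06). The third gene that rose in both lines was LPA1, which is mutated in low phytic acid rice, with 2.98 and 4.35 (limma, adjusted p = 0.00999 and 0.00101). Its KMR3 leaf values were 6.55, 4.75 and 2.06, the last of them under background, so the size of its rise in KMR3 is uncertain. ITL1, of the inositol trisphosphate kinase family, had -0.96 and -1.27 and fell in both (limma, adjusted p = 0.000153 and 2.16e-05).

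**Figure D4:**
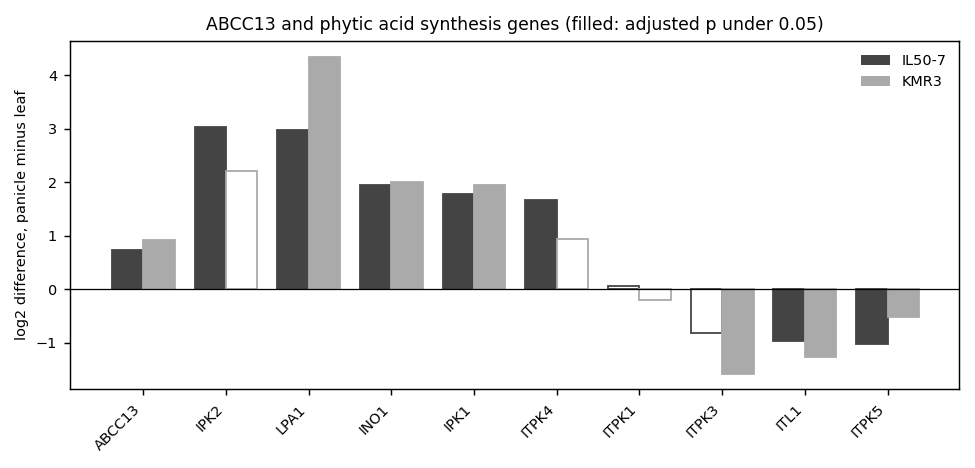
Log2 difference of panicle minus leaf (vertical axis, bars from 0) for ABCC13 and 9 phytic acid synthesis genes in IL50-7 (dark) and KMR3 (light), filled where the adjusted p was under 0.05. ABCC13 stands at 0.73 and 0.92 and INO1 at 1.96 and 2.01, the difference between genes was not tested, and the 3 genes at the right end lie below 0 in both lines.

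Glutathione transferases attach glutathione to compounds that ABCC pumps then carry into the vacuole. Of 6 tested, 3 rose and 2 fell in the panicle of each line, led by GSTU1, whose probe set is marked as shared with related transcripts, with 3.56 in IL50-7 and 4.02 in KMR3 (limma, adjusted p = 2.61e-05 and 1.14e-05). PIN proteins are auxin carriers, and ABCB pumps, not represented here, also move auxin. Of 4 tested PIN genes 2 rose and 1 fell in each line, and the one that fell was PIN5A, with -3.65 and -4.11 (limma, adjusted p = 5.48e-06 and 2.58e-06). Of 7 tested genes of the pollen wall and anther cuticle, which ABCG proteins supply with lipids, 5 rose in IL50-7 and 6 in KMR3, with 0 lower in either. Of these 7, 6 are the same probe sets as in the tapetum and pollen markers, so the counts are no separate result. Of the cuticular wax list the symbol wsl3 alone matched, which rice also uses for a white stripe leaf gene, so it was not read as a wax gene. No phytochelatin synthase was matched.

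The comparison of IL50-7 with KMR3 asked whether the lines differ in these transporters within an organ. None of the 11 tested genes passed in flag leaf, in panicle or in the interaction of line and organ by limma (0 in each), and 0 had an unadjusted p under 0.05 in any of the 3. Over all probe sets 0.0729% were called in leaf, 0% in panicle and 0.0291% for the interaction. The lines did not overlap for 0 of the 11 genes in either organ, where 9.17% of all probe sets did not overlap in leaf and 9.22% in panicle. A p that misses the threshold does not show that the lines were alike, and for the dim genes the intervals were wide.

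In flag leaf, ABCG48, ABCC13 and ABCI12 had the smallest p. ABCG48 differed by -0.98 between means under background. ABCC13 had 9.84, 9.26 and 9.40 in IL50-7 leaves, against 9.36, 9.40 and 9.11 in KMR3 leaves, a difference of 0.21 (95% interval -0.17 to 0.59). The ABCI12 difference was -0.33 (-0.93 to 0.27). The leaf values of the lines overlapped for all 3 genes, and ABCG36, the root cadmium pump, differed by -0.35 (-1.13 to 0.42).

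In panicle, ABCG32, ABCG37 and ABCG50 had the smallest p. ABCG32 differed by -1.30 between means under background. ABCG37 had 7.30, 6.45 and 5.88 in IL50-7 panicles, against 6.78, 6.60 and 7.45 in KMR3 panicles, a difference of -0.40 (95% interval -1.35 to 0.55). The ABCG50 difference was -0.24 (-0.88 to 0.41). The interval was narrowest for ABCC13, whose panicle difference was 0.02 (-0.36 to 0.40), and that of ABCG36 was -0.17 (-0.94 to 0.61). With the pair in doubt left out, 128 probe sets of the array were called between the lines in panicle and 0 of them was an ABC transporter gene. ABCG5, which was not tested for want of signal, had its IL50-7 panicle values all below those of KMR3 panicles, with 0 of 3 IL50-7 arrays and 2 of 3 KMR3 arrays above background. Were the labels of the pair in doubt exchanged, the lines would overlap, since IL50-7 would then hold the value of 2.28 and KMR3 a value of 0.26.

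**Figure D5:**
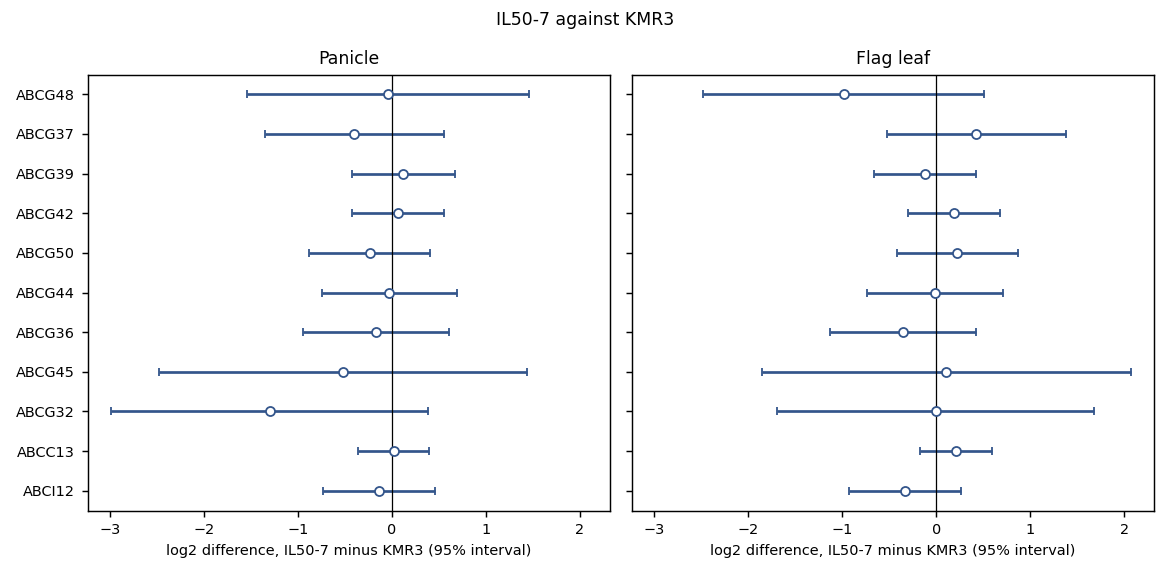
Log2 difference of IL50-7 minus KMR3 (horizontal axis) with its 95% interval for the 11 tested genes in panicle (left) and flag leaf (right). Every interval includes 0, and the widest are those of the dim genes ABCG32, ABCG45 and ABCG48.

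The interaction of line and organ, counted as IL50-7 minus KMR3 in panicle less the same in leaf, had its smallest p for ABCG37, at -0.83 (95% interval -2.17 to 0.52), followed by ABCG32 at -1.29 and ABCG50 at -0.46. For ABCG37 the value of the interaction is that of its organ difference in IL50-7 minus that in KMR3, so the larger rise in KMR3 was not distinguishable from that in IL50-7 (limma, adjusted p = 0.9999). Sequence differences of the lines under the probes were not examined.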

How the data were processed

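Labelled RNA of 12 samples was read on 1-colour Affymetrix arrays for rice, 1 sample each, per the labels. The authors deposited 1 linear intensity per probe set and array (57381 probe sets, 0.0139 to 21276). Per the submitters' processing notes, GCOS 1.2 was used, for a step they leave unnamed. Algorithm, scaling and genome build: not given in the sources used here. No 2 arrays were identical. The deposited scaling was replaced, because trimmed means (2%) differed 2.38-fold.

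Intensities were log2 transformed, quantile normalized, and raised to the 10th percentile (log2 0.26) where lower. After removal of 187 controls, the 34316 probe sets with a mean above the 40th percentile were tested with limma 3.58.1 (R 4.3.3). The model had 4 group means over 12 arrays and a trend in the prior variance (8 residual and 3.22 prior degrees of freedom). A fold is a lower bound where all 3 arrays of the dimmer group were under background, and none is given where both means were. Names come from the platform annotation and a RefSeq table (ASM3414082v1), used for names and gene order. LAX1 was dropped from the auxin carriers, since in that table it is a bHLH factor. The number of arrays limits the precision.

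The members, lists and tests were chosen with earlier results of these data known. The named genes were every called member, up to 4 each way in a subfamily, those with the 3 smallest p where none passed, and members of known role. The other members were named because the set is small. Replicate numbers are shared by the groups, but the deviations of same-numbered arrays correlated at -0.328 to 0.400, so they were not taken as pairs. Alternatives changed the scaling, filter, floor, trend, array weights, block, arrays fitted and probe set summary, or left out arrays. The limma fit was run on simulated data with independent normal noise. That simulation left out the normalization, the floor and the arrays that stood apart, so it does not test those. Figures were drawn with matplotlib 3.10.9.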

Additional observations from a re-analysis of the deposited data

How the results depend on the processing

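Counts of called ABC transporter genes moved by over 1.5 times in 1 case, the IL50-7 organ comparison on the deposited scale, with 3. Leaving out single arrays gave 5 to 6 called genes for panicle against leaf in IL50-7, 4 to 5 in KMR3, and 0 for both line comparisons and the interaction. Of all probe sets, 12939 to 16084 were then called between organs in IL50-7 and 13736 to 17038 in KMR3. With the replicate number as a block, the counts were 5 in each line and 0 for each of the other comparisons, and no call changed. That fit called 15257 of all probe sets between organs in IL50-7 and 15900 in KMR3. Dim genes passed the filter in part of the alternatives, ABCG45 in 19 of 25 and ABCG48 in 24 of 25. The interaction could not be fitted with the 6 arrays of 1 comparison alone. Without KMR3 panicle replicate 2 the ABCG42 fall in KMR3 was -0.68 (limma, adjusted p = 0.0553), and with array medians set equal it was -0.52 (limma, adjusted p = 0.252). ABCG50 passed in IL50-7 with no trend, with array weights and without IL50-7 leaf replicate 1 (limma, adjusted p = 0.0351 to 0.0471).

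Signs turned for differences near 0. ABCG36 in IL50-7 was -0.06 without IL50-7 panicle replicate 2, without IL50-7 leaf replicate 2 and without the pair in doubt (-0.0613, -0.05648 and -0.06064), and leaving out single arrays gave -0.0613 to 0.473. ABCG36 in KMR3 was 0.53 on the deposited scale, 0.37 with equal medians, 0.0374 with array weights and 0.20 without KMR3 leaf replicate 1, and leaving out single arrays gave -0.292 to 0.202. ABCG39 in KMR3 was 1.21 with its brightest probe set and -0.0356 with the mean of its probe sets, the second of which was much dimmer. On the deposited scale ABCG44 was 0.14 and ABCG50 0.21 in KMR3, and ABCG50 was 0.0440 with equal medians. ABCG32 in KMR3 was 0.0223 without KMR3 panicle replicate 1, and leaving out single arrays gave -0.315 to 0.0223. The cause was not tested. The ABCG median difference in IL50-7 ran from -0.24 to 0.48 over 25 alternatives, so its sign is not settled.

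Median levels moved by more than the spread of replicates as follows. On the deposited scale ABCG in IL50-7 leaf was 4.96, ABCC13 was 10.51 in KMR3 panicle and 9.12 in KMR3 leaf, and ABCI12 was 7.07 in KMR3 panicle. With equal medians ABCC13 was 10.44 and ABCI12 7.00 in KMR3 panicle. Without the pair of high marker arrays they were 10.07 and 6.62, without the pair in doubt ABCI12 was 6.66, and leaving out single arrays gave 6.64 to 6.77. Both pairs were chosen after seeing the data. Signal near background limits ABCG5, ABCG32, ABCG45 and the leaf values of ABCG48.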
